A study of Mus musculus with 10 samples.

Results

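The classical complement pathway was examined in the brain after Aldara treatment of the skin, through 9 genes that encode its recognition molecule, its proteases, its thioester proteins and the protease of its amplification loop. The genes were C1qa, C1qb, C1qc, C1ra, C1s1, C2, C3, C4b and Cfb, and they were found by their symbol among the probesets of the array. Of the 9 genes, 8 had a probeset that carried their symbol, and C3 was not analysed here. They were read by 9 of the 23410 probesets tested, since C1ra had a probeset of its own and another that it shared with its near-identical copy C1rb. The shared probeset is written C1rb/C1ra, and its signal cannot be assigned to either gene.

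Brains came from 10 female mice of the C57BL/6 strain, aged 6 to 8 weeks. Aldara cream was given to 5 mice and aqueous control cream to 5, on shaved skin of the back, at 80 mg every 24 h for 5 applications. Aldara contains 5% imiquimod, a synthetic ligand of Toll-like receptor 7, and other components of its vehicle that the control cream lacks, so the comparison is of the whole cream. The brains were perfused and taken 24 h after the last application, and the RNA of each whole brain was hybridised to 1 Affymetrix GeneChip Mouse Gene 1.0 ST array. Values are log2 expression values after RMA, the authors' normalisation, so that a log2 difference of 1 is a doubling. The fold changes compare groups within a probeset. Levels of different probesets are used only to call a probeset bright or dim, and not as amounts of RNA.

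Complement is a cascade of plasma and tissue proteins that marks microbes, debris and synapses for removal. In the classical pathway, C1q binds a target and activates the serine proteases C1r and C1s, which cleave C4 and C2 to form the convertase that splits C3. Factor B, encoded by Cfb, forms the convertase of the alternative pathway, which amplifies the deposition of C3. In the mouse brain, C1q is made mainly by microglia, and C4 and C3 are induced in glia during inflammation. C1q and C3 take part in the removal of synapses by microglia during development.

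The members lie in clusters. C1qb, C1qc and C1qa stand side by side on chromosome 4, C1ra and C1s1 on chromosome 6, and C4b, Cfb and C2 in the major histocompatibility complex on chromosome 17. Upstream sequences are shown for neighbours whose own probesets changed by log2 1.81 and 1.89 (C1qb and C1qc) or 0.53 and 0.51 (C1ra and C1s1). The shared probeset C1rb/C1ra changed by 1.01. These 4 genes were shown because no promoter sequence was found for the other measured members. The sequences are RefSeq promoters of build GRCm38.p6, from which bases lying inside the annotated gene were left out. They run 5′ to 3′ on the strand of the gene. Capitals mark matches to the motifs named after them.
C1qb, chr4:136886201-136886450, minus strand: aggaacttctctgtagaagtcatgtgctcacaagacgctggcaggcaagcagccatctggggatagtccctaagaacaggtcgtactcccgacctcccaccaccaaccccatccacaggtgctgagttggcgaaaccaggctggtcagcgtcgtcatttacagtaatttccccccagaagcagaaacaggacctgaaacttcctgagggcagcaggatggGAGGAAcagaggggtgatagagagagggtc
C1qc, chr4:136892937-136893164, minus strand: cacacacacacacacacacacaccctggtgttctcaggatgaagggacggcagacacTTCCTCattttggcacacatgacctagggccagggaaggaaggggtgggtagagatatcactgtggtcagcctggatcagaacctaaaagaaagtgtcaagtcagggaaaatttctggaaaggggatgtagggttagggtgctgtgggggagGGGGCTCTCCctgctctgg
C1ra, chr6:124512371-124512620, plus strand: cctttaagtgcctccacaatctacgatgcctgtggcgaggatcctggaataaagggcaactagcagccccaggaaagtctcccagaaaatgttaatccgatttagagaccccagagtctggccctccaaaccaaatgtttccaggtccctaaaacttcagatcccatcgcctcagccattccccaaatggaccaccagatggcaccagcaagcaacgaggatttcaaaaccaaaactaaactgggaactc
C1s1, chr6:124542393-124542609, minus strand: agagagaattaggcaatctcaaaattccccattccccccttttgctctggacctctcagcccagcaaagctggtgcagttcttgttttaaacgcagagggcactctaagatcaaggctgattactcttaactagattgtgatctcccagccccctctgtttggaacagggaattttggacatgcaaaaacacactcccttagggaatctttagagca

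Of the 9 members, 5 were found in the promoter table by their symbol. C1qa, C2, C4b and Cfb were not among them. Both strands of the 250 bases before the listed start were searched for the PU.1 core GAGGAA, the interferon-stimulated response element (GAAA, any pair of bases, GAAA), the gamma-activated site TTCNNNGAA and the NF-kB consensus. PU.1 is a transcription factor of myeloid cells, the next pair are bound by factors that interferons activate, and NF-kB is a factor of inflammatory signalling. In C1qb, a PU.1 core stood at bases -30 to -25 before the listed start, on the strand of the gene. In C1qc it stood at -193 to -188 on the opposite strand, where it reads TTCCTC, and an NF-kB match, GGGGCTCTCC, stood at -41 to -32. No motif of the 4 matched in C1ra or in C1s1. Of 32851 promoters searched in the same way, 23.3% held the PU.1 core, 2.98% the interferon-stimulated response element, 7.02% the gamma-activated site and 7.25% the NF-kB consensus. A match describes the letters only, and binding was not measured.

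The arrays were close in scale, but each Aldara median lay above each control median. Medians of the tested probesets ran from 8.10 to 8.14 in control mice and from 8.16 to 8.19 in Aldara-treated mice. Arrays correlated at 0.998 to 0.999 within the control group, at 0.995 to 0.999 within the Aldara group and at 0.980 to 0.988 between groups. Genes of neurons such as Snap25, at 13.36 ± 0.03 (SD, n = 5) in control mice, and of myelin such as Mbp, at 12.16 ± 0.03 (SD, n = 5), were bright, as the label of whole brain requires. Whether a dim probeset stood above background is not known from these values.

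Each of the 8 measured members rose after Aldara. All 9 probesets were higher at an adjusted p under 0.05 (limma, Benjamini-Hochberg over all 23410 probesets) and 0 were lower, where 12.4% of all probesets tested were higher and 21% were lower. The groups did not overlap for any of the 9, with Aldara above control, which was so for 10.5% of all probesets, and 15.3% had the groups apart with Aldara below. At least 2-fold increases were found for 6 of the 9 probesets, against 1.59% of all, and at least 3-fold increases for 4, namely C4b and the C1q chains, against 0.786% of all. The median log2 change over the 8 probesets with 1 symbol was 1.68, and it was -0.04 over all probesets. In whole brain, more cells of a type and more RNA per cell cannot be told apart.

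**Figure D1:**
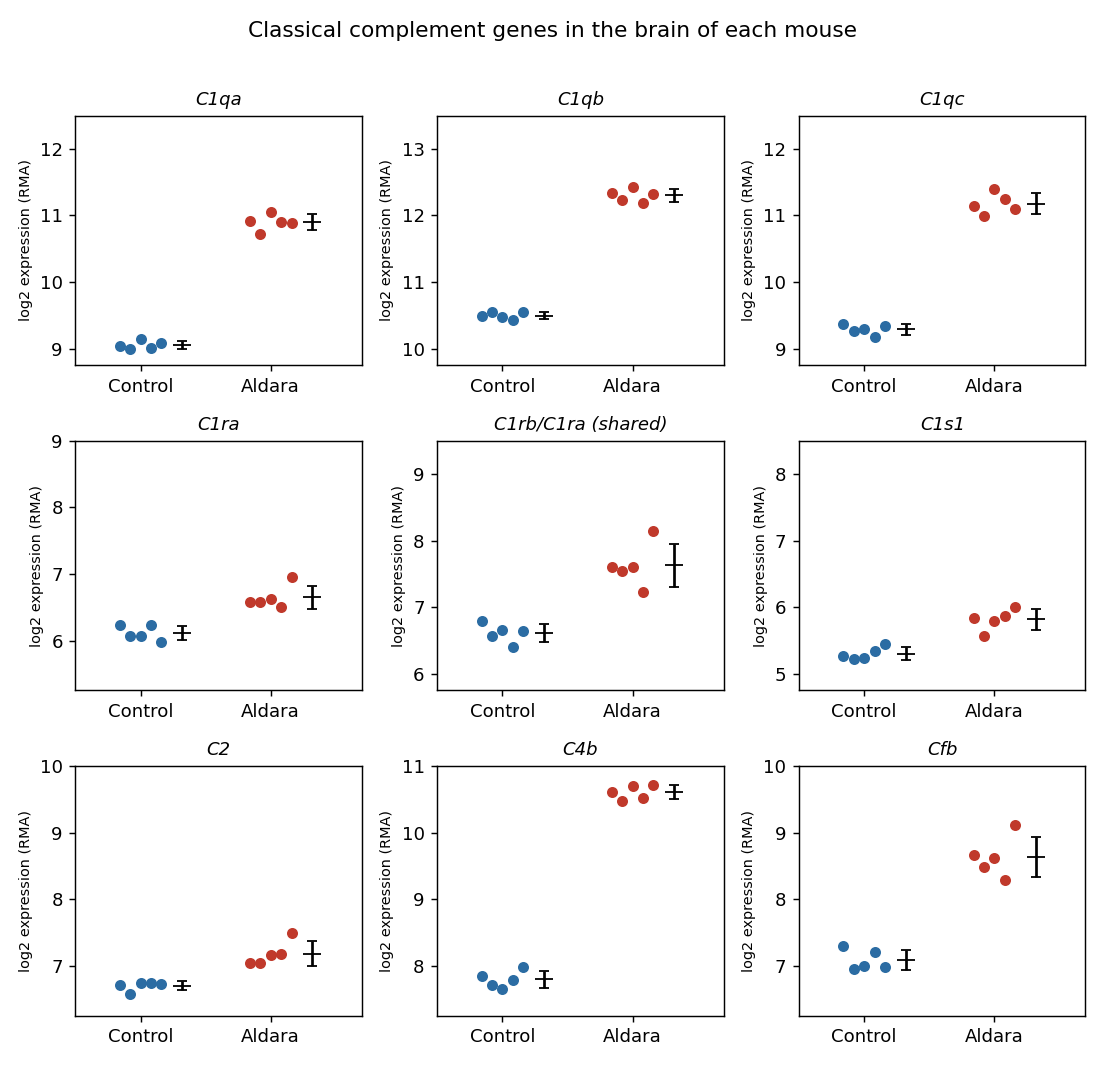
Log2 RMA expression (vertical axis, of equal length in each panel) of 9 probesets of classical complement genes in 5 control brains (blue) and 5 Aldara brains (red), ordered by replicate from left to right. Black marks give the mean and SD of each group, and in each panel all red points lie above all blue points, by the widest gap for C4b (2.50) and the narrowest for C1s1 (0.13).

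The chains of C1q, which assemble into a bouquet-shaped molecule that binds antibody, debris and synapses, rose by 3.497-fold to 3.69-fold. C1qa was at 9.04, 9.001, 9.14, 9.01 and 9.08 in control replicates 1 to 5 and at 10.92, 10.72, 11.06, 10.90 and 10.89 in Aldara replicates 1 to 5. The groups lay 1.58 log2 units apart at their closest. The increase of C1qa was 3.59-fold (95% interval 3.31 to 3.90, limma adjusted p = 1.8e-10), or 1.85 with a standard error of 0.05 on the log2 scale.
C1qb was at 10.49, 10.54, 10.47, 10.43 and 10.55 in control mice and at 12.34, 12.24, 12.43, 12.19 and 12.32 in Aldara-treated mice. It had the smallest SD of the members in control mice (0.05), and it rose 3.497-fold (95% interval 3.27 to 3.75, adjusted p = 6.6e-11). C1qc was at 9.38, 9.27, 9.29, 9.17 and 9.35 in control mice and at 11.14, 10.99, 11.40, 11.25 and 11.10 in Aldara-treated mice. It rose 3.69-fold (95% interval 3.33 to 4.09, adjusted p = 1.5e-09). Aldara replicate 3 was the highest for each of the C1q chains, and all 5 Aldara-treated mice stood well above the controls.

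C4b, which encodes the C4 protein that C1s cleaves and that binds to surfaces through its thioester, showed the largest change of the members. It was at 7.84, 7.71, 7.65, 7.79 and 7.98 in control mice and at 10.61, 10.48, 10.70, 10.53 and 10.71 in Aldara-treated mice. The groups lay 2.50 log2 units apart at their closest, and the Aldara-treated mice were no more spread than the controls, with an SD of 0.10 against 0.13. The increase was 7.02-fold (95% interval 6.37 to 7.74, limma adjusted p = 3.6e-11), or 2.81 with a standard error of 0.06 on the log2 scale. Among all probesets tested, the increase of C4b ranked 49.

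The proteases of the C1 complex showed smaller changes on the array, where their probesets lay below the median level of all probesets tested. C1ra, which encodes the C1r protease that C1q activates, was at 6.23, 6.07, 6.07, 6.23 and 5.98 in control mice and at 6.58, 6.59, 6.63, 6.51 and 6.95 in Aldara-treated mice. Aldara replicate 5 stood above the others of its group. C1ra rose 1.45-fold (95% interval 1.28 to 1.63, adjusted p = 2.9e-04 from limma), and the log2 fold change was 0.53 (standard error 0.08).
The shared probeset C1rb/C1ra was at 6.79, 6.57, 6.66, 6.41 and 6.64 in control mice and at 7.61, 7.55, 7.61, 7.23 and 8.14 in Aldara-treated mice. It was 2.02-fold higher (95% interval 1.65 to 2.47, adjusted p = 1.2e-04), and the log2 change of C1ra's own probeset less that of the shared probeset was -0.48 (95% interval -0.71 to -0.26, exact two-sided permutation test, adjusted p = 0.011). Which of the genes it shares gave the larger change cannot be told from it.
C1s1, which encodes the C1s protease that cleaves C4 and C2, was at 5.27, 5.23, 5.23, 5.34 and 5.45 in control mice and at 5.84, 5.58, 5.80, 5.87 and 6.00 in Aldara-treated mice. Its groups came closest of all the members, with Aldara replicate 2 lying 0.13 above control replicate 5. C1s1 rose 1.43-fold (95% interval 1.28 to 1.59, adjusted p = 1.7e-04).

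The proteases of the convertases differed from each other. C2, whose product joins C4b protein in the convertase of the classical pathway, was at 6.72, 6.58, 6.74, 6.74 and 6.73 in control mice and at 7.04, 7.03, 7.16, 7.18 and 7.49 in Aldara-treated mice. It rose 1.40-fold (95% interval 1.24 to 1.57, adjusted p = 4.6e-04 from limma), the smallest change of the members. Cfb, the neighbour and close relative of C2, was at 7.30, 6.95, 7.003, 7.20 and 6.98 in control mice and at 8.67, 8.48, 8.62, 8.29 and 9.11 in Aldara-treated mice. Aldara replicate 5 was the highest and replicate 4 the lowest of the Aldara-treated mice. Cfb rose 2.92-fold (95% interval 2.41 to 3.55, adjusted p = 2.6e-06), or 1.55 with a standard error of 0.13 on the log2 scale. In the exact two-sided permutation test each of the 9 probesets had p = 0.00794, which is the lowest value that 5 mice against 5 can give.

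The members changed by unequal amounts. Of 36 pairs of probesets, 27 changed by different amounts (exact two-sided permutation test on the difference within each array, adjusted p = 0.032 or below over the 36 pairs). On the log2 scale, the change of C1qa less that of C4b was -0.97 (95% interval -1.15 to -0.78 from limma), and that of C2 less C4b was -2.33 (95% interval -2.53 to -2.13). C1qa exceeded C1ra's own probeset by 1.31 (95% interval 1.09 to 1.54) and the shared probeset C1rb/C1ra by 0.83 (95% interval 0.55 to 1.11). It exceeded C1s1 by 1.33 (95% interval 1.14 to 1.52) and C2 by 1.36 (95% interval 1.16 to 1.57). C2 less Cfb was -1.07 (95% interval -1.29 to -0.84), although these genes adjoin.
The other 9 pairs did not pass. The change of C1qa less that of C1qb was 0.04 (95% interval -0.13 to 0.21), that of C1qa less C1qc was -0.04 (95% interval -0.21 to 0.13) and that of C1qb less C1qc was -0.08 (95% interval -0.26 to 0.10). These intervals do not show that the chains changed alike, and they bound how far apart they were. With C1ra's own probeset, the intervals were -0.19 to 0.23 for C1ra less C1s1, -0.13 to 0.23 for C1ra less C2 and -0.15 to 0.21 for C1s1 less C2. The shared probeset C1rb/C1ra did pass against both (exact permutation test). It exceeded C1s1 by 0.50 (95% interval 0.23 to 0.77, adjusted p = 0.032) and C2 by 0.53 (95% interval 0.30 to 0.77, adjusted p = 0.022). Cfb lay below the C1q chains by 0.26 to 0.34, which did not pass (exact permutation test, adjusted p = 0.12 to 0.14), whereas the intervals from limma left out a difference of 0 for C1qa and C1qc. A change of a dim probeset can be understated by its background, and the 5 probesets of C1ra, C1rb/C1ra, C1s1, C2 and Cfb had means below the median of all probesets.

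The mice did not keep the same order across the members. Aldara replicate 3 was the highest of its group for C1qa, C1qb and C1qc, and Aldara replicate 5 for the other 6 probesets. The mean log2 change of the C1q chains was 1.85, 1.703, 2.02, 1.83 and 1.82 in Aldara replicates 1 to 5. For C1ra, C1s1, C2 and Cfb together it was 0.73, 0.62, 0.75, 0.66 and 1.09. Thus replicate 5 was the highest for the proteases and lay within the range of the others for C1q.
Without Aldara replicate 5 all 9 probesets still passed, and the log2 fold change was 1.43 for Cfb, 0.89 for C1rb/C1ra, 0.46 for C1ra, 0.47 for C1s1 and 0.40 for C2. Some lists were also highest in Aldara replicate 5, and others were not. The mean log2 change over 8 measured interferon-induced genes, all of them higher, was 2.88, 2.61, 3.04, 2.65 and 3.76 in Aldara replicates 1 to 5. Over 8 measured markers of monocytes and infiltrating macrophages it was 2.88, 2.60, 2.86, 2.64 and 3.03, and over 11 measured complement regulators it was 0.18, 0.12, 0.21, 0.19 and 0.25. The mean over 9 measured microglial markers was 0.60, 0.55, 0.75, 0.65 and 0.49, with replicate 3 the highest and replicate 5 the lowest. Over 9 measured complement receptors it was 1.49, 1.25, 1.42, 1.25 and 1.46, with replicate 1 the highest. With 5 mice the relation of these lists to the members was not tested.

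**Figure D2:**
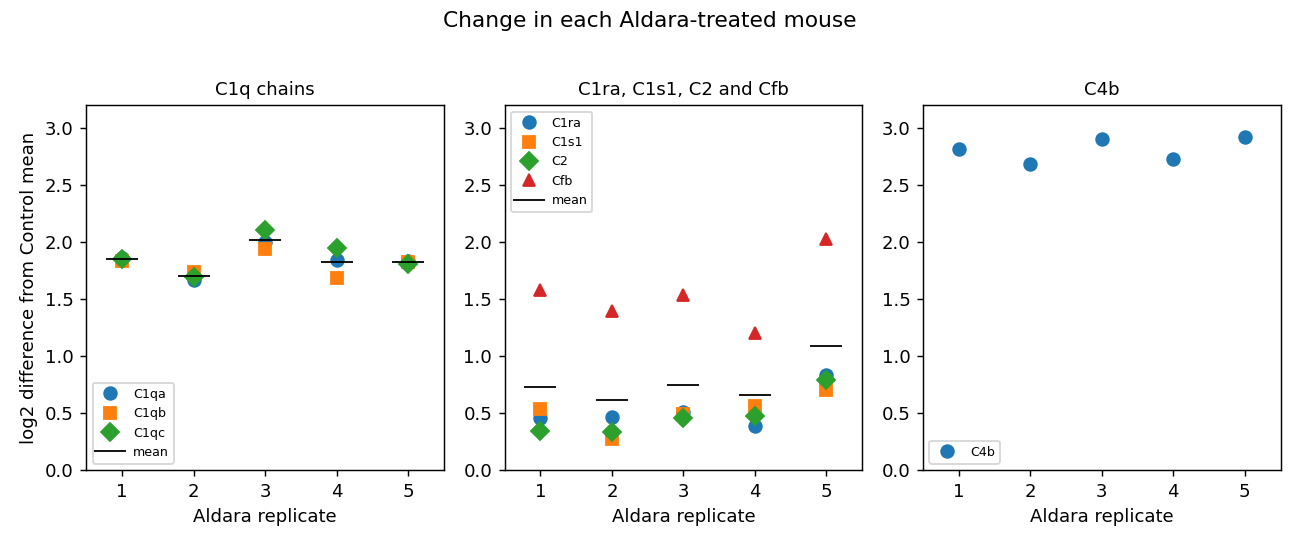
Log2 difference from the mean of the control mice (vertical axis) in each Aldara-treated mouse (horizontal axis, replicates 1 to 5, which have no order), for the C1q chains, for C1ra, C1s1, C2 and Cfb, and for C4b. Each symbol is a gene and black lines are means over the genes of a panel, and replicate 5 is the highest for the proteases, at a mean of 1.09, but not for C1q, at 1.82.

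Markers of other cell types were read beside the members. Of 9 measured microglial markers, 7 were higher and 1 was lower, with a median log2 change of 0.79. Csf1r, the growth factor receptor of microglia and macrophages, changed by 0.84 (standard error 0.05). Olfml3, Tmem119 and Sall1 were also among the higher ones, by 1.10, 0.86 and 0.26 on the log2 scale. Siglech, a microglial lectin, fell by 0.77, and P2ry12, a purine receptor of resting microglia, had a difference of 0.02 (standard error 0.04). The summed level of the list, as its mean, ran from 8.68 to 8.83 in control mice and from 9.22 to 9.48 in Aldara-treated mice.
All 8 measured markers of monocytes and infiltrating macrophages were higher, with a median log2 change of 3.68, and their mean ran from 6.56 to 6.72 in control mice and from 9.23 to 9.66 in Aldara-treated mice. The changes of these markers ran from 0.45 for Itga4 to 4.46 for Ms4a6c on the log2 scale. Ccr2 changed by 1.29, Plac8 by 0.87 and Lyz2, a lysozyme gene, by 3.62 (standard error 0.09). Of 8 astrocyte markers, 3 were higher and 5 were lower, with a median log2 change of -0.21. They ran from -0.57 for Slc1a2, a glutamate transporter, to 1.73 for Gfap, the filament of reactive astrocytes. All 8 neuronal markers were lower, by log2 differences of -0.21 to -0.08, and 4 of 7 markers of endothelium and mural cells were higher. Of 6 choroid plexus markers 4 were lower, with a median of -0.28, and of 7 markers of meningeal fibroblasts 2 were higher, with a median of -0.04 and a highest value of 0.86 for Dcn. Of 6 T cell markers 2 were higher and 1 was lower, of 4 B cell markers 1 was higher, and of 5 oligodendrocyte markers 1 was higher and 1 lower. Of 2 erythroid markers 0 passed in limma, 0 at an unadjusted p under 0.05 and 0 by the methods' t-test. Haemoglobin genes were read only by probesets shared between copies, and none passed in limma. Their log2 differences were 0.08 and 0.10 for Hba and 0.29 and 0.32 for Hbb, with standard errors of 0.36 to 0.43. Of 6 markers of border macrophages 0 were higher and 2 lower, and of 6 neutrophil markers 0 passed in limma, 1 was higher at an unadjusted p under 0.05 and 0 passed by the methods' t-test. The part of these cells in the changes of the members was not tested.
Markers of liver, the main source of complement in plasma, were read in the same way. An array of RNA does not measure protein that comes from plasma. Of 7 measured hepatocyte markers, 0 passed in limma, 0 at an unadjusted p under 0.05 and 0 by the methods' t-test, with log2 differences from -0.087 to -0.0026. Alb, the albumin gene, was at 5.77 ± 0.04 (SD, n = 5) in control mice and 5.75 ± 0.10 (SD, n = 5) in Aldara-treated mice.

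The increase was not shared by all of complement. Of 52 other complement genes and relatives measured, 14 were higher, 4 were lower and 34 did not pass, where 12.4% of all probesets tested were higher and 21% were lower. Of 9 receptors, 7 were higher and 2 did not pass, with a median log2 change of 1.78 over the 9. C3ar1, the receptor for the C3a fragment, went from 7.55 ± 0.13 (SD, n = 5) to 10.93 ± 0.16 (SD, n = 5), which is 3.38 with a standard error of 0.08 on the log2 scale (limma adjusted p = 4.4e-11). Itgam and Itgb2, which together form complement receptor 3 of phagocytes, changed by 1.95 (standard error 0.09) and 2.19 (standard error 0.10). Cr2, a receptor of B cells, and Vsig4, a receptor of tissue macrophages, did not pass, at -0.04 for Cr2 (standard error 0.03) and -0.02 for Vsig4 (standard error 0.04).
Among 11 measured regulators, 4 were higher and 1 was lower. Serping1, the inhibitor that inactivates C1r and C1s, went from 8.67 ± 0.13 (SD, n = 5) to 10.43 ± 0.21 (SD, n = 5), which is 1.76 with a standard error of 0.09 on the log2 scale (adjusted p = 5.5e-08). The other changes of regulators were small. Vtn, which blocks the terminal complex, changed by 0.28 (standard error 0.04), Cr1l and Cd59a, inhibitors on cell surfaces named after their values were seen, by 0.17 (standard error 0.05) and 0.12 (standard error 0.04), and Cd46 fell by 0.21 (standard error 0.05). When each array was centred on its median, 2 regulators were higher and 3 lower, and the methods' t-test called 2 higher.

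Of 9 measured genes of the lectin pathway and of properdin, 2 were higher and 7 did not pass. Cfp, properdin, which stabilises the convertase that holds factor B, changed by 0.53 (standard error 0.07, adjusted p = 1.6e-04), and Masp1, a protease of the lectin pathway, by 0.26 (standard error 0.04). Colec11, a lectin, had a difference of -0.12 (standard error 0.05, adjusted p = 0.10).
Of 7 measured genes of the terminal pathway, whose products form the membrane attack complex, 0 passed in limma, 0 at an unadjusted p under 0.05 and 0 by the methods' t-test. Their log2 differences ran from -0.08 for C8a to -0.01 for C8b, with -0.07 for Hc (standard error 0.04), which encodes C5, and -0.05 for C9 (standard error 0.04). All were dim, with control means from 5.51 for C9 to 6.91 for C8g, below the median level of all probesets tested. Whether these probesets could have shown a change is not known. When each array was centred on its median, 3 of the 7 were lower.

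**Figure D3:**
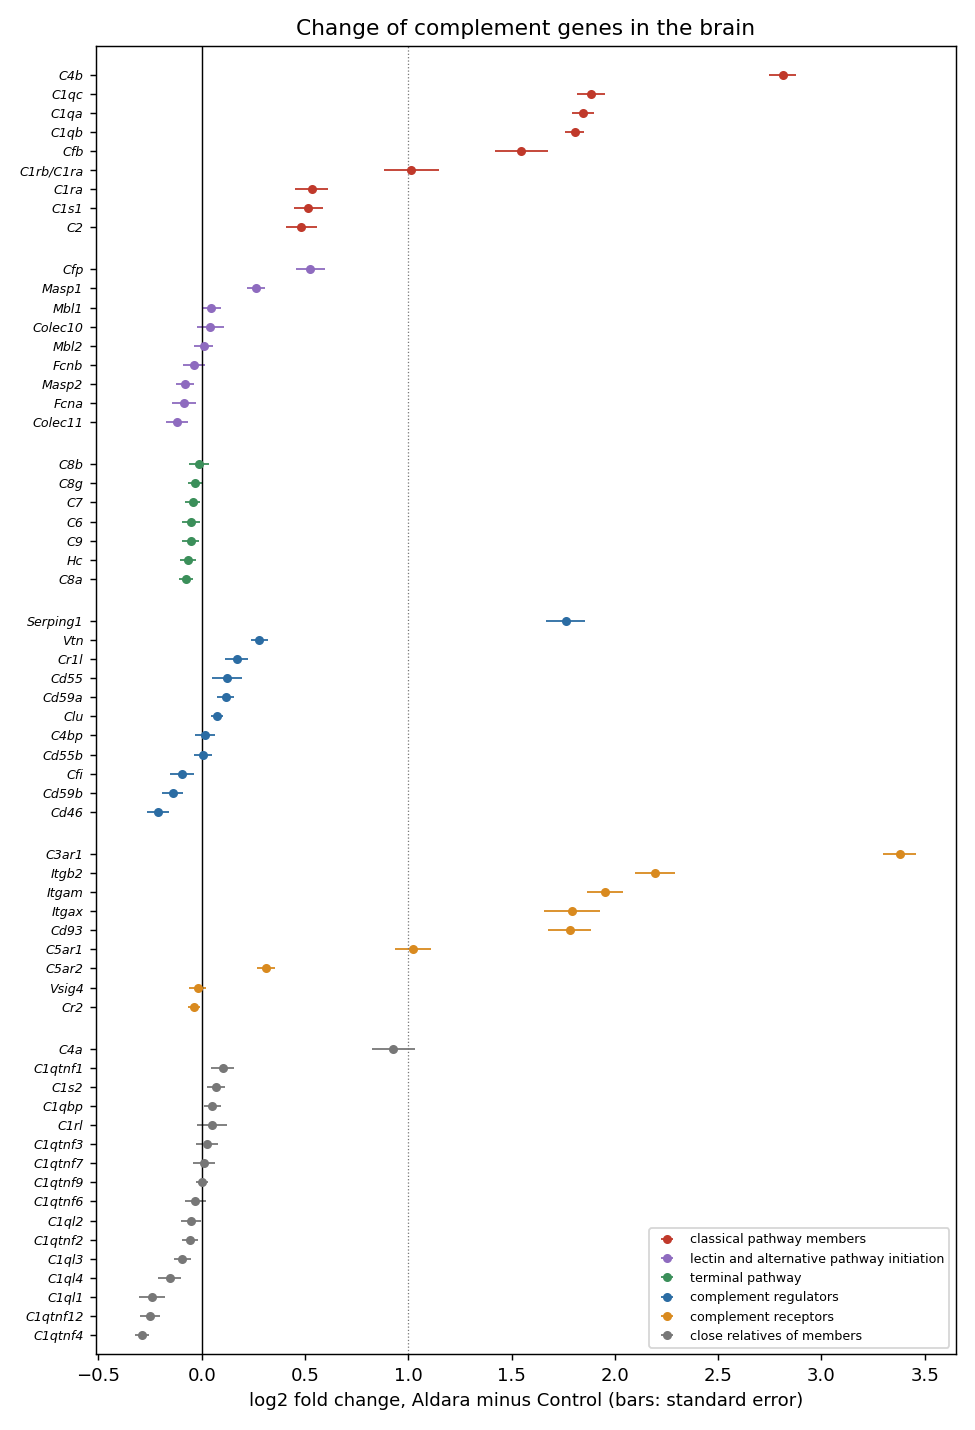
Log2 fold change of Aldara over control mice (horizontal axis, points, with bars for the standard error) for 9 probesets of classical pathway members and 52 other complement genes and relatives, coloured by list and ordered within it. The solid line marks no change and the dotted line a doubling, and C4b (2.81) and C3ar1 (3.38) lie farthest to the right.

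Relatives of the members and genes beside them on the chromosome were read in the same way, and the neighbours and the pairs of a member with its relative were chosen after values were seen. Of 16 measured relatives, C4a was higher, C1qtnf4, C1qtnf12 and C1ql1 were lower and 12 did not pass. C4a, the near-identical copy of C4b, was at 6.66, 6.73, 6.45, 6.68 and 6.96 in control mice and at 7.81, 7.31, 7.56, 7.62 and 7.80 in Aldara-treated mice. It was 1.90-fold higher, and its log2 change lay 1.88 below that of C4b (95% interval 1.69 to 2.08, C4b less C4a). Since the copies are so alike, each probeset may detect RNA of the other.
C1s2, the copy of C1s1, was at 5.499, 5.58, 5.70, 5.64 and 5.62 in control mice and at 5.75, 5.59, 5.74, 5.61 and 5.69 in Aldara-treated mice, and these ranges overlap. C1s1 exceeded C1s2 in change by 0.45 (95% interval 0.26 to 0.63). C1s1 was dim, at percentile 7.36 of the mean levels of all probesets tested, and C1s2 had a control mean of 5.61. How far background shrank either change is not known. C1rl, a relative of C1ra beside it on the chromosome, had a difference of 0.05 (standard error 0.07). C1ra's own probeset exceeded that of C1rl by 0.48 (95% interval 0.26 to 0.71). Each of the 3 differences between a member and its relative had p = 0.00794 in the exact two-sided permutation test, unchanged by adjustment over the 3. The C1q-like genes C1qtnf4, C1qtnf12 and C1ql1, which share the globular domain of C1q, had log2 differences of -0.29 (standard error 0.03), -0.25 (standard error 0.05) and -0.24 (standard error 0.06).

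Around the C1q genes, the 6 nearest measured coding genes had log2 differences between -0.17 and -0.01, and 1 of them, Lactbl1, was lower. Around C1ra and C1s1, 7 genes had differences between -0.15 and 0.16, of which Lpcat3 and Phb2 were higher and Pex5 and Clstn3 were lower. Among and around C4b, Cfb and C2, the genes other than C4a had differences between -0.14 for Ehmt2 and 0.04 for Fkbpl, and of these Ehmt2 and Dxo were lower. Cyp21a1, a steroid hydroxylase gene that lies between C4b and C4a, had a difference of -0.10 (standard error 0.04), and Nelfe, beside Cfb, had -0.04 (standard error 0.04).

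**Figure D4:**
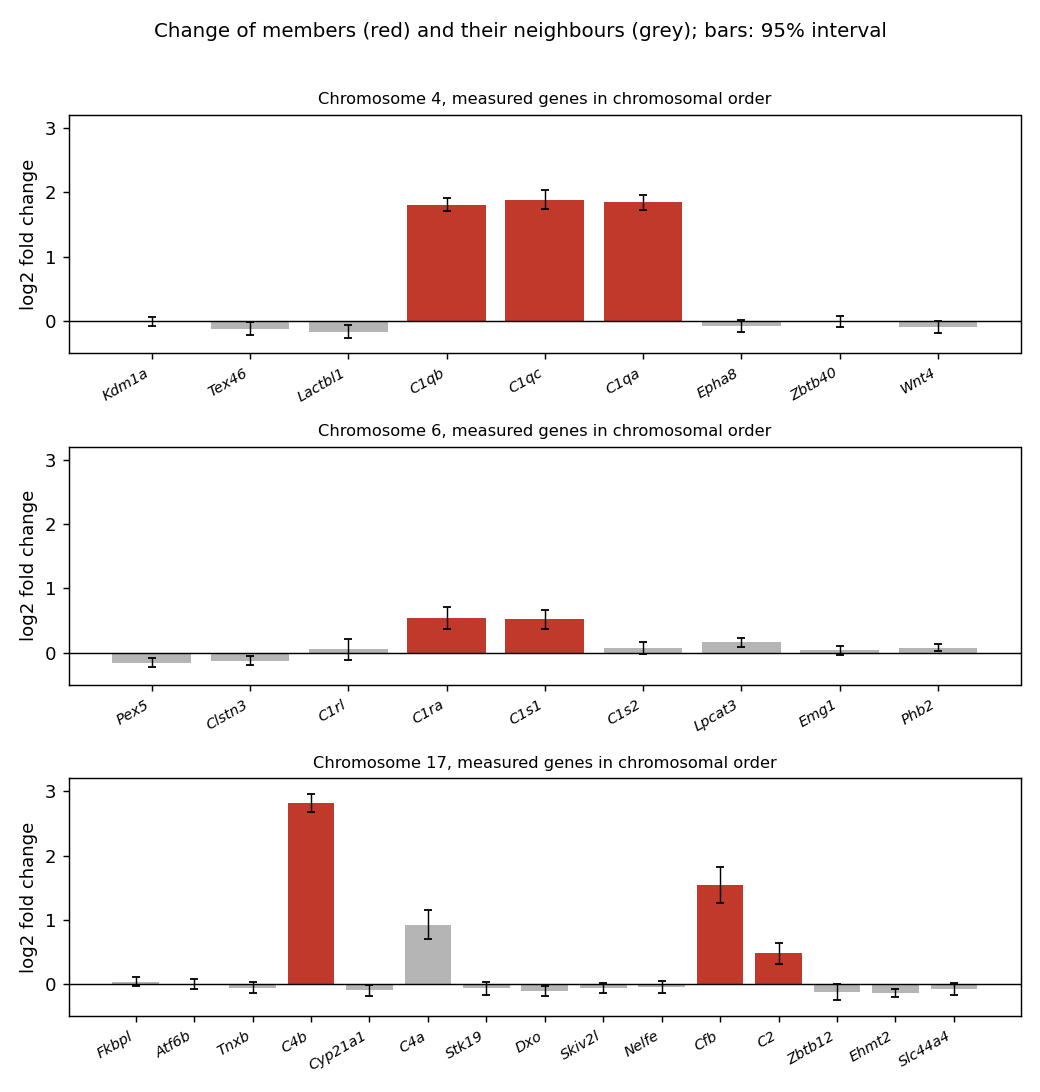
Log2 fold change of Aldara over control mice (vertical axis, bars, with 95% intervals from limma) for members (red) and for other measured coding genes nearby together with C4a (grey), in chromosomal order on chromosomes 4, 6 and 17. The red bars stand at 1.81 to 1.89 for C1q, at 0.51 and 0.53 for C1s1 and C1ra, and at 2.81, 1.55 and 0.48 for C4b, Cfb and C2, while grey bars other than C4a lie between -0.17 and 0.16.

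The genes nearest to C1qa and to C4b in pattern were then sought. Likeness was taken as the mean absolute difference of log2 values, each counted from the mean of the control mice, over 10 arrays and all 19938 genes. Outside the members, Laptm5 (0.05), Lcp2 (0.06) and Nckap1l (0.07) were nearest to C1qa, at distances like those of C1qb (0.06) and C1qc (0.06). Pld4, Apobec1 and Serpina3n, each at 0.08, were nearest to C4b, whereas the nearest member, C1qc, stood at 0.51. Their log2 fold changes were 2.86 (standard error 0.07), 2.84 (standard error 0.07) and 2.69 (standard error 0.06). The measure follows the size of the change and carries no test.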

How the data were processed

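Log2 expression values of 10 whole-brain arrays (GeneChip Mouse Gene 1.0 ST) were used as deposited. The authors made these log2 values in GeneSpring GX by RMA (background subtraction, quantile normalisation and summary per probeset). RMA is also named in the submitters' processing notes. Values ran from 4.73 to 14.56. Scanner values were not used here.

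Gene symbols came from the platform annotation. Of 28856 probesets, 23410 had a symbol and were tested, 1621 of them with several. For lists, 1 probeset per gene was taken, with the highest mean. The test was limma's moderated test (version 3.58.1, R 4.3.3), adjusted over all tested probesets by Benjamini-Hochberg. Exact permutation tests used all relabelings of the arrays. Intervals for pairs of members came from limma, and those for a member and its relative from ordinary least squares. The test was checked on simulated data. The members, the lists and the rule for named genes were chosen with earlier results of these data known. The rule names the members, the 3 genes of each complement list with the smallest p, those that passed against the direction of most, and the 3 genes nearest in pattern to C1qa and C4b. Labels call the mice biological replicates. The number of arrays limits the precision. Alternatives were the methods' t-test, other scalings, other sets of probesets, the replicate number as a block, array weights, a robust prior with an intensity trend, the mean of a gene's probesets, and leaving out each array. Upstream sequences and gene order came from RefSeq GRCm38.p6. The build behind the probesets was not given in the sources used here.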

Additional observations from a re-analysis of the deposited data

Results flagged for a closer look

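Among 18 groups of 5 mice (9 probesets, control and Aldara), 2 held a mouse farther from the rest than Dixon's 95% limit of 0.71 of the range, and chance alone flags about 1 in 20 groups. For C1ra, Aldara replicate 5 was at 6.95, while the rest of its group lay at 6.51 to 6.63. For C2, control replicate 2 was at 6.58, while the rest of its group lay at 6.72 to 6.74. Without the respective mouse, both probesets still passed as higher.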

How the results depend on the processing

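All 9 member probesets stayed higher in every alternative that tested them, with log2 fold changes of 2.76 to 2.86 for C4b, 1.76 to 1.93 over the C1q chains, 1.43 to 1.63 for Cfb, 0.89 to 1.11 for C1rb/C1ra and 0.40 to 0.58 over C1ra, C1s1 and C2. With only probesets at or above the median level, 4 member probesets (C4b and the C1q chains) remained in the test and all 4 were higher, and the other 5 had no value. That setting also left 4 higher receptors, 0 lower regulators and 0 higher relatives, because fewer genes were tested. The settings with 1 symbol and with the mean of a gene's probesets gave no value for C1rb/C1ra. Counts of small changes moved. When each array was centred on its median, 2 regulators were higher and 3 lower, 3 terminal pathway genes, 1 lectin pathway gene and 6 relatives were lower. Quantile normalisation gave 1 lower gene of the lectin pathway, and the methods' t-test 2 higher regulators. Lower regulators numbered 2 with probesets of 1 symbol, 2 with the mean of a gene's probesets and 2 with the replicate number as a block. The cause was not tested.
Leaving out 1 array gave 26 to 29 differing pairs of members, 2 to 5 higher regulators (2 without control replicate 3 or Aldara replicate 3), 1 to 2 lower regulators (2 without control replicate 2 or Aldara replicate 3 or 4), 1 to 2 higher relatives (2 without control replicate 1), 0 to 1 lower terminal pathway genes (1 without control replicate 3) and 0 to 1 lower genes of the lectin pathway (1 without control replicate 5). What equal replicate numbers mean was not stated by the labels. The deviations of same-numbered arrays correlated at -0.11 to 0.25 and 2 of 5 pairs exceeded 0.1, while 4 of 10 arrays lay closest to their own number. Whether the numbers pair the mice cannot be told from these values. The replicate block changed no other count by over 1.5 times, and it gave 27 differing pairs of members. Depth is not defined for arrays, and signal over background was not known here.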
